A study of Mus musculus with 2 samples.

Results

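CCR7 dendritic cells with little or no T cell receptor transcript were selected from the leukocytes of mouse melanomas by molecule counts. A cell was a member if it held at least 10 molecules summed over Fscn1, Ccr7, Cacnb3, Ccl22 and Il4i1, at least 1 of them Fscn1. It also had to hold at most 1 molecule summed over Cd3e, Cd3d, Cd3g, Trac and Trbc2, and under 10 summed over the complement genes C1qa, C1qb and C1qc. In all, 281 of 10491 cells met the rule (2.68%). The exact 95% Clopper-Pearson interval, which covers counting error only, was 2.38% to 3.01%. These 10491 cells were those of 14899 sequenced that carried a single sample tag, 200 or more detected genes and at most 25% mitochondrial molecules. The members held a median of 71 molecules of the 5 selecting genes, with a range of 10 to 453. No molecule of the 5 T cell receptor genes was found in 241 of them, and 40 held 1 molecule.

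The tumours were subcutaneous B16F10 melanomas, a transplantable pigmented mouse line, grown from Tyr knockout, Oca2 knockout or wildtype cells. They lay in the right flank, in C57BL/6 females, with 3 mice per group. CD45+ cells were sorted, each group received 1 sample tag, and all cells passed through 1 capture on the BD Rhapsody system, which counts unique molecules per gene and cell. The labels used here do not say which tag belongs to which tumour genotype, so tags 8, 9 and 10 served as 3 samples of unnamed genotype and were not tested against each other. The 3 mice of a group share a tag and cannot be told apart, no mouse age is given, and whether a knockout line was 1 clone is not stated. The members numbered 109, 84 and 88 in tags 8, 9 and 10, which was 3.27%, 2.41% and 2.40% of the kept cells of each tag. Throughout, 3 values in a row stand for tags 8, 9 and 10, in that order.

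Dendritic cells take up antigen and show it to T cells. Type 1 conventional dendritic cells (cDC1) are specialised in presentation to CD8 T cells, and type 2 cells (cDC2) mainly prime CD4 T cells. On maturation, either kind raises the chemokine receptor CCR7, which guides it through lymph to the draining node, along with costimulatory ligands and NF-kB activity. In tumours, such CCR7-positive cells are also known for high levels of inhibitory ligands such as PD-L1. The members were compared with 141 cDC1 (53, 47 and 41 cells), which held 2 or more molecules of Xcr1 and Clec9a, and with 128 cDC2 (46, 42 and 40 cells), which held 2 or more of Cd209a. Both comparison classes held under 10 molecules of the 5 selecting genes and met the same T cell, complement and quality limits. The median depth was 6219 molecules per cell in CCR7 dendritic cells, against 12255 in cDC1 and 5826.5 in cDC2.

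The 5 selecting genes chose the members, so their levels are given as a description. Levels are molecules summed over the cells of a tag and class, scaled to counts per 1000000 molecules (CPM) with TMM factors, which align the bulk of genes between sums. Fscn1, which encodes the actin-bundling protein fascin, had 4995, 3630.3 and 4271 CPM in CCR7 dendritic cells, against 6.78, 5.11 and 1.84 CPM in cDC1 and 6.41, 4.09 and 3.70 CPM in cDC2. Ccr7 had 2988, 2274 and 2896 CPM in CCR7 dendritic cells, against 58.3, 46.02 and 44.1 CPM in cDC1 and 199, 242 and 289 CPM in cDC2. Ccl22, a chemokine for CCR4-bearing T cells, had 3809, 2619.9 and 1632 CPM in CCR7 dendritic cells, against 28.5, 18.7 and 55.1 CPM in cDC1 and 67.3, 53.2 and 33.3 CPM in cDC2. Cacnb3, a calcium channel subunit, had 1418, 1054 and 1150.2 CPM in CCR7 dendritic cells and Il4i1, a secreted amino acid oxidase, 271, 218 and 243 CPM. Around the threshold, the 10 members with sums of 10 to 12 held 24 Ccr7 molecules at a median depth of 2943.5 molecules, and the 17 cells just outside it, with sums of 7 to 9, held 42 at 4196. Of those 10 members, 4 are among the 11 cells described next that went against the label (4 Ccr7 molecules, median depth 35897), and 5 of the 17 cells outside met the same limits.

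The label was checked against 8 dendritic cell markers and against markers of other types. Flt3, Zbtb46, H2-Ab1, Cd74, Cd83, Ccl17, Tmem123 and Relb summed to 13661 to 14334 unscaled CPM per tag in CCR7 dendritic cells, against 23723 to 27482 in cDC1, 27172 to 31753 in cDC2 and 6519 to 8076 in the remaining kept cells. Of all members, 279 held 3 or more of these molecules, as did 6910 of the remaining kept cells, so that count does not set the members apart. Of the 33184 marker molecules in the members, 9484 were H2-Ab1 and 13044 were Cd74. These class II presentation genes make up most of the sum. However, 11 members went against the label. They were picked after the data were seen, as cells with 100 or more molecules of the fibroblast markers Col1a1, Col3a1 and Dcn (9 cells), of melanoma markers (1 cell) or of Sparc (1 cell). Together they held 547064 molecules, 23.2% of all member molecules, with 30693 to 74747 per cell. Of their 213 molecules of the selecting genes 195 were Fscn1 and 5 were Ccr7, and they held 5 molecules of Ptprc, which encodes CD45 (the other 270 members held 720). They numbered 5, 3 and 3 per tag, and 1 cDC1 and no cDC2 met the same limits. Counts of genes called per comparison and list medians are given below with the 281 members and again without these 11 cells and that cDC1. That leaves 270 members (104, 81 and 85) with a median of 6070.5 molecules. Levels, differences of single genes and shares of cells cover all 281 members unless stated otherwise. They also keep the 1 cDC1 that met these limits. It lay in tag 8, held 1237 melanoma marker molecules and made up 81433 of the 704134 molecules of that cDC1 sum. Except for Tcf7, its part in the cDC1 levels of tag 8 was not separated.

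**Figure D1:**
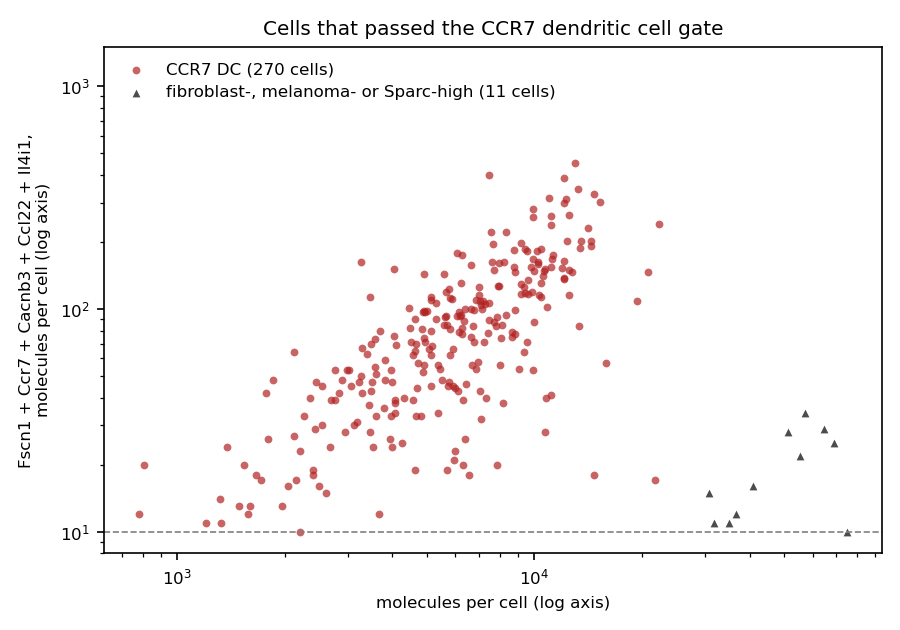
Molecules per cell (horizontal, log axis) against the summed molecules of the 5 selecting genes (vertical, log axis) for the 281 members; each point is a cell and the dashed line is the threshold of 10. The 11 cells rich in fibroblast, melanoma or Sparc transcripts (triangles) lie at 30693 molecules or more with sums of 10 to 34, to the right of the other 270.

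Among the 270 other members, fibroblasts and melanoma cells left few molecules. Fibroblast markers summed to 26 molecules and melanoma markers to 80, the last at 26.1 to 53.1 CPM, against 26.2 to 52.9 CPM in cDC2. Over all members, 12 of 12 T cell markers outside the rule were detected, at a summed 32.0 to 59.3 unscaled CPM in CCR7 dendritic cells, against 14.2 to 32.0 in cDC1 and 34.0 to 62.2 in cDC2. For NK cells, 3 of 5 markers were detected (Ncr1 and Klrb1c were at 0), at 2.31 to 11.98 CPM in CCR7 dendritic cells, against 6.74 to 7.44 in cDC1 and 3.78 to 22.9 in cDC2. All 6 macrophage markers were found, at 53.3 to 100.4 CPM in CCR7 dendritic cells, against 57.3 to 227 in cDC1 and 162 to 195 in cDC2. B cell markers (5 of 5 detected) summed to 13.9 to 25.6 CPM in CCR7 dendritic cells, against 83.8 to 96.7 in cDC1 and 55.6 to 95.4 in cDC2. Monocyte markers (4 of 4) summed to 276 to 317 CPM in CCR7 dendritic cells, against 1273 to 1613 in cDC1 and 1784 to 1925 in cDC2. This list was Ly6c2, Chil3, Ccr2 and Plac8. The cDC2 rule limits Ly6c2 and Chil3, and Ccr2 is itself higher in both conventional classes. The sum is thus no measure of monocyte transcripts alone. Neutrophil markers (5 of 5) summed to at most 70.4 CPM in CCR7 dendritic cells, and plasmacytoid, mast cell and eosinophil markers to at most 6.66 CPM. From the T cell markers on, these values cover all members, and the molecules of the 11 cells enter their totals. Among the 270 other members, T cell markers summed to 43.4, 75.1 and 39.95 CPM, above cDC1 and cDC2 in each tag. Macrophage markers summed to 64.1 to 117 CPM and B cell markers to 17.4 to 34.8 CPM. NK cell markers had 2.89 to 15.6 CPM and neutrophil markers at most 88.2 CPM. Monocyte markers were lower than over all members, at 253 to 287 CPM. The part of these molecules in the comparisons below was not tested.

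Lymphocyte-associated genes in the members were described beside 74 further cells that met the rule except for holding 2 or more T cell receptor molecules. Of these 74 cells, 1, in tag 8, held 3685 fibroblast marker molecules and so adds to the total of that tag. In unscaled CPM, Gzmb, a cytotoxic granule protease, had 5.77, 6.74 and 5.33 in CCR7 dendritic cells, against 695, 977 and 475 in those 74 cells, 1.42, 5.06 and 0 in cDC1 and 3.27, 8.30 and 11.3 in cDC2. Icos, a T cell costimulatory receptor, had 12.7, 1.35 and 14.6 CPM in CCR7 dendritic cells, against 546, 419 and 738 in the 74 cells, 5.68, 18.5 and 7.44 in cDC1 and 16.4, 8.30 and 7.55 in cDC2. The T cell kinase gene Lck had 2.31, 9.43 and 6.66 CPM in CCR7 dendritic cells, against 267, 260.5 and 293 in the 74 cells, 0, 3.37 and 0 in cDC1 and 6.54, 0 and 3.77 in cDC2. Levels of these 3 genes in the members lay below every tag of the 74 cells and near the level of the conventional dendritic cells. The split by T cell receptor molecules itself favours higher levels of T cell genes in the 74 cells, so this difference is a description and not a test. Of 22 T and NK cell genes outside the rule, a single one, Ctla4, passed the filter on low counts for the tests below, and it was lower against cDC1 (log2 difference -3.22 ± 0.61, edgeR adjusted p = 0.000172) and not called against cDC2. Ccl5, a chemokine made by T cells and by mature dendritic cells, had 4549.8, 3262 and 4249 CPM in CCR7 dendritic cells, against 1872, 3223 and 3801 in the 74 cells. The IL-7 receptor gene Il7r had 235, 261 and 278 CPM in CCR7 dendritic cells, against 256, 225 and 153 in the 74 cells, and Tcf7, a transcription factor of naive and memory T cells, 158, 102 and 146 CPM in CCR7 dendritic cells, against 81.6, 48.5 and 68.3 in the 74 cells. Unlike Gzmb, Icos and Lck, these 3 genes were at a similar or higher level in the cells without the T cell receptor molecules than in the 74 cells with them, apart from Il7r in tag 8, which was slightly lower. Tnfrsf9, which encodes the costimulatory receptor 4-1BB, lay in between, with 327, 106 and 141 CPM in CCR7 dendritic cells, against 659, 643 and 702 in the 74 cells. Cd8a had 40 molecules in the members and Cd8b1 7.

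**Figure D2:**
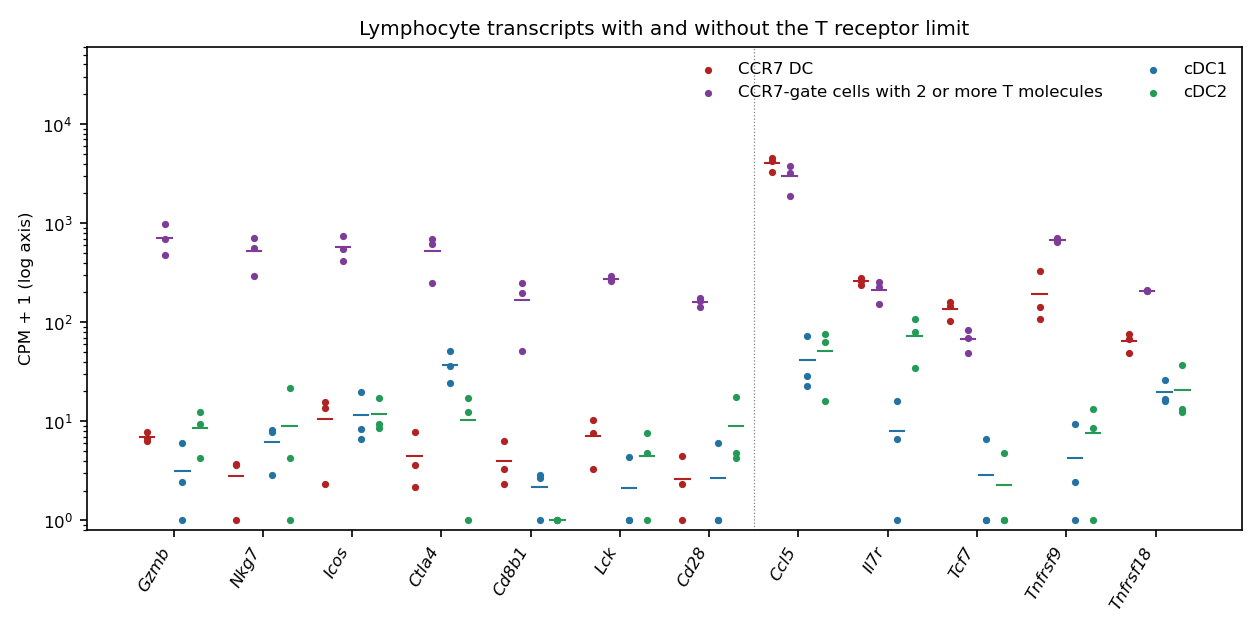
Unscaled CPM + 1 (log axis) of 12 lymphocyte-associated genes in CCR7 dendritic cells, in the 74 cells that met the rule but held 2 or more T cell receptor molecules, and in cDC1 and cDC2; points are tags and bars their means. Left of the dotted line the members lie with the conventional dendritic cells, as Gzmb with 5.77, 6.74 and 5.33 CPM does, and right of it they lie with or toward the 74 cells, as Ccl5 does.

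Across the transcriptome, 8 of 11 costimulatory and 14 of 16 NF-kB genes tested were called higher in CCR7 dendritic cells than in cDC1, and 6 of 11 and 5 of 16 were called higher than in cDC2. All 13 cDC1 lineage genes tested were called lower than in cDC1, and 7 of 10 cDC2 lineage genes lower than in cDC2. The test was edgeR's quasi-likelihood test on 9 sums (3 tags in each of 3 classes) with tag as a block, over 6991 genes, with the 19 genes of the rules left out. Genes that vary together with those 19 are still selected in part by the rules. A gene was called at a Benjamini-Hochberg adjusted p under 0.05 and a difference of at least 2-fold. Against cDC1, 1185 genes were called higher in CCR7 dendritic cells (17%) and 777 lower (11.1%). Against cDC2, 1084 were called higher (15.5%) and 674 lower (9.64%). Without the 11 cells, over 6342 genes, the counts were 1152 (18.2%) and 939 (14.8%) against cDC1, and 1064 (16.8%) and 805 (12.7%) against cDC2. Both comparisons use the same CCR7 sums, so their calls are not independent: 816 genes were called higher in both (68.9% of the cDC1 calls and 75.3% of the cDC2 calls) and 399 lower in both (51.4% and 59.2%). The p-values measure the spread of the class difference between 3 tags, which are separate sets of mice and differ in tumour genotype. The median log2 difference of all genes tested was -0.03 against cDC1 and 0.06 against cDC2 (0.03 and 0.10 without the 11 cells). The gene lists described next were chosen with earlier results of these data known, and genes without a molecule in a class entered their medians at the same values to 2 decimals when set to a floor of 3 molecules.

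The 11 cells changed which genes led the higher side. With them, 14 of the 15 largest called differences against cDC1 that met a level of 50 CPM and 2-fold in each tag were genes of the extracellular matrix and of stromal cells. Bgn, which encodes the matrix proteoglycan biglycan, had 399, 574 and 1195 CPM in CCR7 dendritic cells and no molecule without the 11 cells. The collagen gene Col1a1 had 2649.7, 2841 and 4514 CPM in CCR7 dendritic cells and 11.5, 0 and 3.86 CPM without the 11 cells. These genes are therefore not described as genes of CCR7 dendritic cells. The 11 cells also lowered the CPM of dendritic cell genes, whose total holds their molecules: Cd40 had 298, 315 and 279 CPM with them and 400.4, 483 and 380.5 CPM without them.

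Without the 11 cells, the 15 leading higher genes against cDC1 were Mreg, Tnfsf4, Tcf7, Npr1, Nudt17, Sod3, Apol7c, Slco5a1, Cd200, Gstt1, Insm1, Synpo2, Socs2, Lad1 and Crispld2. Npr1, a receptor for atrial natriuretic peptide, had 116, 112 and 91.3 CPM in CCR7 dendritic cells, against no molecule in cDC1 or cDC2. With no molecule in either conventional class, it was at least 63.3-fold higher than in cDC1 and at least 27.97-fold higher than in cDC2 against a floor of 3 molecules over the class (72.2-fold and 33.4-fold without the 11 cells). Nudt17, a nudix hydrolase gene, had 95.2, 65.4 and 104 CPM in CCR7 dendritic cells, against no molecule in cDC1 or cDC2. That was at least 52.1-fold and 23.04-fold higher. The same 0 in both classes held for Apol7c, an apolipoprotein L gene, with 29.3, 82.7 and 73.03 CPM in CCR7 dendritic cells. Insm1, a zinc-finger transcription factor known from neuroendocrine cells, had 36.6, 52.1 and 67.4 CPM in CCR7 dendritic cells and no molecule in cDC1 or cDC2. Mreg, which encodes melanoregulin, an organelle trafficking protein, had 629, 555 and 640.4 CPM in CCR7 dendritic cells, against 13.6, 0 and 0 CPM in cDC1 and 9.61, 8.19 and 18.5 CPM in cDC2. Every CCR7 sum of these 5 genes lay above every sum of the conventional classes. These genes were chosen for large differences from cDC1, with 2-fold in each tag, which largely sets this result for cDC1. Here and below, a lack of overlap is a description, and its share over all genes was not counted. DESeq2 did not call the 4 genes without a molecule in the conventional classes: its adjusted p was 0.0929 for Npr1, 0.108 for Nudt17, 0.145 for Apol7c and 0.158 for Insm1 against cDC1.

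Against cDC2 and without the 11 cells, the leading higher genes were Il12b, Cd200, Npr1, Nudt17, Sh3bp4, Papss2, Slc22a23, Tmem150c, Ikzf4, Slc27a3, Nck2, Apol7c, Slco5a1, Vsig10 and Serpinb6b. Serpinb6b, a protease inhibitor gene, had 1077, 896 and 1052 CPM in CCR7 dendritic cells, against 39.3, 57.95 and 62.5 CPM in cDC1 and 12.8, 0 and 0 CPM in cDC2. Its log2 difference was 4.25 ± 0.25 against cDC1 (edgeR adjusted p = 7.73e-09) and 7.64 ± 0.41 against cDC2 (edgeR adjusted p = 4.88e-09), each with its standard error. Ikzf4, which encodes the Ikaros family factor Eos, had 100.1, 76.1 and 54.8 CPM in CCR7 dendritic cells, with 1 molecule in cDC1 and none in cDC2, at least 20.4-fold higher than in cDC2. All 3 CCR7 sums of both genes stood above all sums of cDC1 and cDC2, which for cDC2 is largely set by how they were chosen.

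On the lower side, the 15 leading genes against cDC1 without the 11 cells were Mctp1, March1, Mllt3, Rab7b, Sept3, P2ry14, Tifab, Sema4f, Naaa, Ckb, Plet1, Gcsam, Mycl, Sdad1 and Ube2c. Mctp1, a calcium-binding membrane protein gene, had no molecule in the 281 members, against 84.1, 124 and 103 CPM in cDC1 and 41.7, 12.3 and 22.2 CPM in cDC2. It was at least 81.9-fold lower than in cDC1 and at least 21.3-fold lower than in cDC2. P2ry14, a receptor for UDP-glucose, had 1.22, 1.33 and 2.81 CPM in CCR7 dendritic cells, against 84.1, 118 and 95.6 CPM in cDC1 and 25.6, 24.6 and 18.5 CPM in cDC2. Mycl, a MYC family factor that supports cDC1, had 3.66, 1.33 and 1.40 CPM in CCR7 dendritic cells, against 56.98, 56.2 and 73.5 CPM in cDC1 and 28.8, 20.5 and 3.70 CPM in cDC2. Members lay below every conventional sum for all 3 genes, which for cDC1 is largely set by how these genes were chosen. Against cDC2, 14 of the 15 leading lower genes were Cdh1, Ifitm6, Cd209d, Iqgap2, Clec10a, Lpxn, Qpct, Cd300a, Tm6sf1, Ctnnd2, Cd7, Atp2a3, Emp1 and Nucb2. Cdh1, which encodes the adhesion protein E-cadherin, had 0, 0 and 4.21 CPM in CCR7 dendritic cells, against 0, 3.41 and 1.84 CPM in cDC1 and 202, 192 and 178 CPM in cDC2. For Cdh1 the members overlapped cDC1 and not cDC2. Emp1 turned with the 11 cells: its log2 difference against cDC1 was 1.97 ± 0.21 with them and -1.29 without them.

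Most costimulatory genes were called higher in CCR7 dendritic cells, and none was called lower. Of 11 costimulatory genes tested, 8 were called higher and 0 lower against cDC1, and 6 higher and 0 lower against cDC2. For costimulatory genes without the 11 cells, of 11 tested, the counts were 11 and 0 against cDC1, and 7 and 0 against cDC2. Costimulatory genes had a median log2 difference of 2.49 against cDC1 and 1.68 against cDC2 (2.97 and 2.23 without the 11 cells). Over all genes tested, 17% were called higher against cDC1 and 15.5% against cDC2. Cd40, the receptor through which T cell help reaches dendritic cells, had 298, 315 and 279 CPM in CCR7 dendritic cells, against 14.9, 47.7 and 66.2 CPM in cDC1 and 54.5, 90.1 and 70.3 CPM in cDC2. It was higher by a log2 difference of 2.89 ± 0.30 against cDC1 (edgeR adjusted p = 2.21e-06) and 2.09 ± 0.31 against cDC2 (edgeR adjusted p = 0.000106), and the groups did not overlap. The CD28 ligand gene Cd80 had 360.2, 324 and 285 CPM in CCR7 dendritic cells, against 63.8, 49.4 and 58.8 CPM in cDC1 and 192, 254 and 159 CPM in cDC2. Its call was higher against cDC1 (2.49 ± 0.19 log2, edgeR adjusted p = 1.13e-09), while against cDC2 it passed the 2-fold limit only without the 11 cells (0.69 ± 0.18 with them, 1.26 without them). Cd86, the other CD28 ligand, had 391, 395 and 302 CPM in CCR7 dendritic cells, against 236, 266 and 215 CPM in cDC1 and 304, 287 and 263 CPM in cDC2. Its difference of 0.60 ± 0.15 against cDC1 and 0.34 ± 0.15 against cDC2 was not called, though 1.09 against cDC1 without the 11 cells was. Tnfsf4, which encodes OX40 ligand, had 194, 133 and 94.1 CPM in CCR7 dendritic cells, against no molecule in cDC1 and 16.02, 8.19 and 7.40 CPM in cDC2. That was at least 84.5-fold higher than in cDC1, which held no molecule. Tnfrsf4, the gene of OX40 itself, had 84.3, 73.4 and 108 CPM in CCR7 dendritic cells, against 4.07, 1.70 and 0 CPM in cDC1 and 3.20, 0 and 3.70 CPM in cDC2. Cd1d1, which presents lipids to NKT cells, had 179, 164 and 226 CPM in CCR7 dendritic cells, against 8.14, 6.82 and 11.03 CPM in cDC1 and 3.20, 12.3 and 7.40 CPM in cDC2. For these 3 genes every CCR7 sum exceeded every conventional sum. Cd70 was below the filter, with 24 molecules in CCR7 dendritic cells and none in cDC1 or cDC2.

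Inhibitory and regulatory genes moved in both directions. Of 14 inhibitory and regulatory genes tested, 8 were called higher and 3 lower against cDC1, and 7 higher and 4 lower against cDC2. For inhibitory and regulatory genes without the 11 cells, of 13 tested, the counts were 8 and 3 against cDC1, and 8 and 4 against cDC2. Inhibitory and regulatory genes had a median log2 difference of 1.70 against cDC1 and 1.11 against cDC2 (2.30 and 1.92 without the 11 cells). Among all genes tested, 17% were called higher and 11.1% lower against cDC1, and 15.5% higher and 9.64% lower against cDC2. Cd274, which encodes PD-L1, had 543, 602 and 534 CPM in CCR7 dendritic cells, against 118, 205 and 90.04 CPM in cDC1 and 131, 266 and 111 CPM in cDC2. The log2 difference was 2.10 ± 0.19 against cDC1 (edgeR adjusted p = 1.58e-08) and 1.81 ± 0.20 against cDC2 (edgeR adjusted p = 4.71e-07), with no overlap between the groups. Pdcd1lg2, the gene of the second PD-1 ligand PD-L2, had 85.5, 133 and 143 CPM in CCR7 dendritic cells, against 23.1, 52.8 and 11.03 CPM in cDC1 and 22.4, 28.7 and 3.70 CPM in cDC2 and was called higher in both comparisons. Cd200, a ligand of the myeloid inhibitory receptor CD200R, had 623, 415 and 519.6 CPM in CCR7 dendritic cells, against 1.36, 5.11 and 0 CPM in cDC1 and no molecule in cDC2. It was at least 137-fold higher than in cDC2 (176-fold without the 11 cells). Socs2, a suppressor of cytokine signalling, had 680.1, 605 and 695 CPM in CCR7 dendritic cells, against 4.07, 1.70 and 5.51 CPM in cDC1 and 19.2, 24.6 and 7.40 CPM in cDC2. Its log2 difference of 7.38 ± 0.29 against cDC1 (edgeR adjusted p = 4.95e-14) was 8.02 without the 11 cells, and all CCR7 sums stood clear of both classes. Aldh1a2, which makes retinoic acid, had 74.5, 38.7 and 44.9 CPM in CCR7 dendritic cells, against 2.71, 1.70 and 1.84 CPM in cDC1 and no molecule in cDC2. In the other direction, Havcr2, which encodes TIM-3, had 7.33, 10.7 and 2.81 CPM in CCR7 dendritic cells, against 149, 181 and 176 CPM in cDC1 and 48.1, 40.9 and 29.6 CPM in cDC2 and was called lower in both comparisons. Vsir, which encodes the checkpoint ligand VISTA, had 23.2, 14.7 and 21.1 CPM in CCR7 dendritic cells, against 75.98, 54.5 and 58.8 CPM in cDC1 and 99.3, 81.9 and 44.4 CPM in cDC2, also lower in both. Ido1, a tryptophan-degrading enzyme of some mature dendritic cells, had 5 molecules in the 281 members and was not tested.

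**Figure D3:**
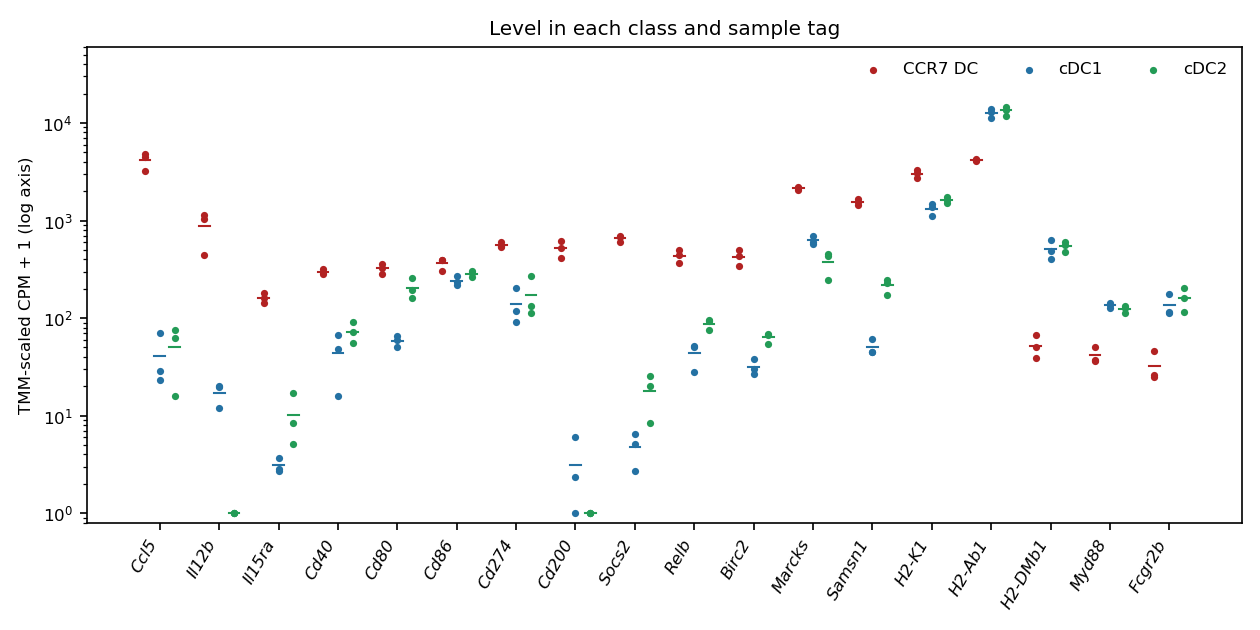
TMM-scaled CPM + 1 (log axis) of 18 genes in CCR7 dendritic cells, cDC1 and cDC2; points are the 3 tags and bars their means, with all 281 members. Cd274 at 534 to 602 CPM and Socs2 at 605 to 695 CPM lie above both conventional classes in every tag, and H2-DMb1, Myd88 and Fcgr2b lie below both.

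Cytokine, chemokine and receptor genes moved in both directions, with Ccl5, Il12b and Il15ra far higher in CCR7 dendritic cells. Of 24 genes of chemokines, cytokines and their receptors tested, 11 were called higher and 3 lower against cDC1, and 11 higher and 5 lower against cDC2. For genes of chemokines, cytokines and their receptors without the 11 cells, of 24 tested, the counts were 12 and 2 against cDC1, and 11 and 4 against cDC2. Genes of chemokines, cytokines and their receptors had a median log2 difference of 0.65 against cDC1 and 0.22 against cDC2 (1.06 and 0.73 without the 11 cells). Calls over all genes were 17% higher and 11.1% lower against cDC1, and 15.5% higher and 9.64% lower against cDC2. The 3 lower calls against cDC1 lie near that share. Ccl5 (chromosome 11 from 83525778 to 83530518 on GRCm38) had a TMM-scaled level of 4813, 3233 and 4482 CPM in CCR7 dendritic cells, against 69.2, 22.2 and 27.6 CPM in cDC1 and 60.9, 73.7 and 14.8 CPM in cDC2. Its log2 difference was 6.73 ± 0.43 against cDC1 (edgeR adjusted p = 0.00011) and 6.43 ± 0.46 against cDC2 (edgeR adjusted p = 0.000231). Il12b (chromosome 11 from 44400063 to 44414033), the shared p40 subunit of IL-12 and IL-23, had 1042, 439 and 1149 CPM in CCR7 dendritic cells, against 18.99, 18.7 and 11.03 CPM in cDC1 and no molecule in cDC2. No CCR7 sum of either gene came near a conventional sum, and Il12b was at least 229-fold higher than in cDC2. Its partner subunits were barely counted, with 2 molecules of Il12a and 18 of Il23a in all members. Il15ra, which presents IL-15 to NK and CD8 T cells, had 179, 159 and 142 CPM in CCR7 dendritic cells, against 2.71, 1.70 and 1.84 CPM in cDC1 and 16.02, 4.09 and 7.40 CPM in cDC2. Il15 itself had 42.7, 22.7 and 40.7 CPM in CCR7 dendritic cells, against 5.43, 15.3 and 7.35 CPM in cDC1 and 12.8, 4.09 and 0 CPM in cDC2. Both were called higher in both comparisons, but for Il15 the call against cDC1 was lost without tag 8 (edgeR adjusted p = 0.0561) or tag 10 (edgeR adjusted p = 0.0687). Ccl17, like Ccl22 a CCR4 ligand, had 332, 143 and 91.3 CPM in CCR7 dendritic cells, against 24.4, 1.70 and 7.35 CPM in cDC1 and 12.8, 20.5 and 40.7 CPM in cDC2 and was called higher in both. Il6 had 116, 304 and 206 CPM in CCR7 dendritic cells with the 11 cells and 67.6, 55.2 and 57.9 CPM without them, against 6.78, 13.6 and 3.68 CPM in cDC1 and 3.20, 24.6 and 18.5 CPM in cDC2. It was called higher either way. Il1b had 1738, 1379 and 1044 CPM in CCR7 dendritic cells, against 1571, 1193 and 538 CPM in cDC1 and 3672, 3177 and 1839 CPM in cDC2. Its call of lower against cDC2 (-1.03 ± 0.13) rested on the 11 cells (-0.46 without them).

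Receptor genes for 3 cytokines were higher, and the chemokine receptor gene Ccr2 was lower. Il2ra, the high-affinity IL-2 receptor chain, had 348, 223 and 204 CPM in CCR7 dendritic cells, against 6.78, 8.52 and 5.51 CPM in cDC1 and 16.02, 0 and 11.1 CPM in cDC2. Il7r had 249, 259 and 294 CPM in CCR7 dendritic cells, against 5.43, 15.3 and 0 CPM in cDC1 and 76.9, 32.8 and 104 CPM in cDC2 on the TMM scale. Il21r, the IL-21 receptor gene, had 253, 288 and 303 CPM in CCR7 dendritic cells, against 36.6, 20.5 and 36.8 CPM in cDC1 and 115, 69.6 and 88.8 CPM in cDC2. All 3 were called higher in both comparisons, with no overlap of the groups; without tag 8 the call for Il7r against cDC2 was lost (edgeR adjusted p = 0.081). Ccr2, a receptor for recruitment into inflamed tissue, had 24.4, 13.3 and 35.1 CPM in CCR7 dendritic cells, against 254, 289.8 and 149 CPM in cDC1 and 394, 360.3 and 352 CPM in cDC2. The members lay below all conventional sums, with a log2 difference of -3.23 ± 0.30 against cDC1 (edgeR adjusted p = 9.61e-07) and -3.92 ± 0.31 against cDC2 (edgeR adjusted p = 2.36e-07). Flt3, the receptor that sustains conventional dendritic cells, had 241, 200.2 and 201 CPM in CCR7 dendritic cells, against 189, 271 and 189 CPM in cDC1 and 106, 65.5 and 62.9 CPM in cDC2. It was called higher against cDC2 and lay within the range of cDC1.

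Genes of migration and the cytoskeleton were called higher more often than lower. Of 20 migration and cytoskeleton genes tested, 12 were called higher and 2 lower against cDC1, and 10 higher and 3 lower against cDC2. For migration and cytoskeleton genes without the 11 cells, of 20 tested, the counts were 12 and 1 against cDC1, and 12 and 1 against cDC2. Migration and cytoskeleton genes had a median log2 difference of 1.34 against cDC1 and 0.99 against cDC2 (1.65 and 1.48 without the 11 cells). The share called over all genes was 17% higher and 11.1% lower against cDC1, and 15.5% higher and 9.64% lower against cDC2. The 2 lower calls against cDC1 lie near that share. Marcks, which links membrane and actin, had 2187, 2069 and 2166 CPM in CCR7 dendritic cells, against 599.7, 699 and 579 CPM in cDC1 and 243, 455 and 437 CPM in cDC2. Samsn1, an adaptor of lymphocyte signalling, had 1558, 1439 and 1663 CPM in CCR7 dendritic cells, against 43.4, 59.7 and 44.1 CPM in cDC1 and 247, 172 and 226 CPM in cDC2, which gave log2 differences of 4.98 ± 0.17 against cDC1 (edgeR adjusted p = 8.51e-15) and 2.85 ± 0.16 against cDC2 (edgeR adjusted p = 1.41e-11). Tbc1d4, a Rab GTPase activating protein, had 2983, 2142 and 2348 CPM in CCR7 dendritic cells, against 183, 97.2 and 132 CPM in cDC1 and 269, 159.7 and 70.3 CPM in cDC2. The annexin gene Anxa3 had 471, 364 and 438 CPM in CCR7 dendritic cells, against 17.6, 1.70 and 1.84 CPM in cDC1 and 3.20, 0 and 3.70 CPM in cDC2. For these 4 genes the lowest CCR7 sum exceeded the highest conventional sum, and each was called higher with and without the 11 cells. Pak1, a kinase downstream of Rac and Cdc42, had 29.3, 61.4 and 71.6 CPM in CCR7 dendritic cells, against 144, 230.1 and 191 CPM in cDC1 and 151, 131 and 174 CPM in cDC2. It was called lower against cDC1 in both analyses (-1.83 ± 0.22 with the 11 cells, -1.34 without them). Coro1a, an actin regulator of leukocytes, was called lower against cDC1 only with the 11 cells (-1.06 ± 0.12 with them, -0.56 without them).

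The NF-kB list held genes of the canonical and the alternative arm of this pathway and its feedback inhibitors. Of 16 NF-kB genes tested, 14 were called higher and 0 lower against cDC1, and 5 higher and 1 lower against cDC2. For NF-kB genes without the 11 cells, of 16 tested, the counts were 14 and 0 against cDC1, and 8 and 0 against cDC2. NF-kB genes had a median log2 difference of 1.58 against cDC1 and 0.55 against cDC2 (1.97 and 1.04 without the 11 cells). Beside this list, all genes tested had 17% higher and 11.1% lower calls against cDC1, and 15.5% and 9.64% against cDC2. Relb, the alternative-arm subunit needed for dendritic cell maturation, had 447, 368 and 494 CPM in CCR7 dendritic cells, against 50.2, 27.3 and 49.6 CPM in cDC1 and 73.7, 94.2 and 92.5 CPM in cDC2. Nfkb2, its p100/p52 partner, had 249, 234 and 226 CPM in CCR7 dendritic cells, against 69.2, 73.3 and 79.02 CPM in cDC1 and 86.5, 106 and 118 CPM in cDC2. Both were called higher in both comparisons, Relb by a log2 difference of 3.36 ± 0.20 against cDC1 (edgeR adjusted p = 2.62e-11) and 2.33 ± 0.21 against cDC2 (edgeR adjusted p = 1.14e-08). The canonical subunit genes Rel and Nfkb1 were called higher against cDC1 and not against cDC2. Rel had 1084, 908 and 1042 CPM in CCR7 dendritic cells, against 298, 343 and 274 CPM in cDC1 and 689, 831 and 836 CPM in cDC2. Nfkb1 had 584, 456 and 485 CPM in CCR7 dendritic cells, against 118, 181 and 156 CPM in cDC1 and 477, 602 and 533 CPM in cDC2. Birc2, an inhibitor of the alternative-arm kinase, had 503, 340.3 and 434 CPM in CCR7 dendritic cells, against 25.8, 28.98 and 36.8 CPM in cDC1 and 67.3, 53.2 and 66.6 CPM in cDC2. Nfkbia, the feedback inhibitor IkBa, had 3727, 2828 and 2543 CPM in CCR7 dendritic cells, against 1712, 1459 and 1112 CPM in cDC1 and 2791, 2313 and 2357 CPM in cDC2. It was called higher against cDC1 (1.09 ± 0.11, edgeR adjusted p = 2.83e-08) and not called against cDC2 (0.27 ± 0.10). Traf1, an adaptor of TNF receptors, had 747, 661 and 685 CPM in CCR7 dendritic cells, against 167, 219.9 and 193 CPM in cDC1 and 333, 287 and 233 CPM in cDC2 and was called higher in both. Bcl3, an atypical IkB protein, was called lower against cDC2 only with the 11 cells (-1.38 ± 0.24 with them, -0.99 without them).

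Promoters of members with the kappa B motif are shown because 4 genes of the list that were called higher against cDC1 share it. The motif searched was GGGNNTTTCC and its reverse complement GGAAANNCCC in the 250 bases before each annotated start (RefSeq promoters, GRCm38.p6). It was found in 4 of 14 NF-kB list genes with a promoter (28.6%), against 447 of 27025 of all genes with one (1.65%). Of genes called higher in both comparisons without the 11 cells, 21 of 619 held it (3.39%), of those called lower 1 of 411 (0.243%), and of all genes tested 94 of 5073 (1.85%). None of 4 selecting genes with a promoter held these letters in this window. A match is a description of the sequence and not a bound site. The 250 bases before the start of the 4 list genes follow: Nfkb2 (chr19:46305680-46305929, plus strand), Rel (chr11:23770970-23771219, minus strand), Nfkbia (chr12:55492648-55492897, minus strand) and Tnfaip3 (chr10:19015411-19015660, minus strand), which encodes the ubiquitin-editing feedback inhibitor A20. They run 5′ to 3′ along the gene, with the motif in capitals.
Nfkb2: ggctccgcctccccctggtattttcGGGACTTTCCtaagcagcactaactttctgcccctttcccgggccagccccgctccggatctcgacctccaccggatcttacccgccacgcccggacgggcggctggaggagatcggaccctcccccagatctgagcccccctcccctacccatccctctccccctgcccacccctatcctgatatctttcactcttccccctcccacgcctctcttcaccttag
Rel: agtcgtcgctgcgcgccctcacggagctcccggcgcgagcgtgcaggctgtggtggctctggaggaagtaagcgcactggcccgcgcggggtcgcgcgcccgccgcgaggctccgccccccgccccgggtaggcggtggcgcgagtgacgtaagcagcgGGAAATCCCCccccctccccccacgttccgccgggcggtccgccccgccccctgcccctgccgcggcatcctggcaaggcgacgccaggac
Nfkbia: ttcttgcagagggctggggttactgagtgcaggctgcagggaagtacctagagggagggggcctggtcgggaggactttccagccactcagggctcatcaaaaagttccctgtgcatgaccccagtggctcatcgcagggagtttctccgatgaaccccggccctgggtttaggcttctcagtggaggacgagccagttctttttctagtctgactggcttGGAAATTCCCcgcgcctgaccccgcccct
Tnfaip3: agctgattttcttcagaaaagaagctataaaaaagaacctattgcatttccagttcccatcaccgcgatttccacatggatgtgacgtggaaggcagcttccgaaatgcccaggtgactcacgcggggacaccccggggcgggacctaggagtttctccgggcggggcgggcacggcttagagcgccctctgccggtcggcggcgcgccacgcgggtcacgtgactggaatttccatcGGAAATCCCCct
The motif began 225 bases before the start in Nfkb2, 91 in Rel, 29 in Nfkbia and 12 in Tnfaip3; a second annotated start of Nfkb2 has another match 11 bases before it. These 4 genes were all called higher against cDC1, and of them Nfkb2 alone also against cDC2. Tnfaip3 had 1051, 882 and 684 CPM in CCR7 dendritic cells, against 392, 348 and 283 CPM in cDC1 and 599, 692 and 777 CPM in cDC2.

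Genes of the survival and apoptosis list were called higher where they were called, with 1 exception. The list mixes genes that block apoptosis with genes that promote it, such as Bax, Bak1 and Bcl2l11. Its counts are therefore not counts of survival genes and give no direction for survival. Of 12 survival and apoptosis genes tested, 7 were called higher and 0 lower against cDC1, and 6 higher and 1 lower against cDC2. For survival and apoptosis genes without the 11 cells, of 12 tested, the counts were 7 and 0 against cDC1, and 7 and 1 against cDC2. Survival and apoptosis genes had a median log2 difference of 1.26 against cDC1 and 1.09 against cDC2 (1.77 and 1.60 without the 11 cells). In comparison, 17% of all genes were called higher and 11.1% lower against cDC1, and 15.5% higher and 9.64% lower against cDC2. Cflar, which encodes the caspase-8 inhibitor cFLIP, had 694, 666 and 583 CPM in CCR7 dendritic cells, against 176, 123 and 121 CPM in cDC1 and 231, 352 and 311 CPM in cDC2. Bcl2l14, a BCL2 family gene, had 179, 192 and 189.6 CPM in CCR7 dendritic cells, against 13.6, 23.9 and 29.4 CPM in cDC1 and 6.41, 0 and 7.40 CPM in cDC2. Both were called higher in both comparisons without overlap, and without tag 8 the log2 difference of Cflar against cDC2 was 0.93, under the 2-fold limit. The near-identical Bcl2a1a, Bcl2a1b and Bcl2a1d, which block mitochondrial apoptosis, were all called higher, but molecules may be split between the copies. The exception was Bcl2 itself, which had 6.11, 2.67 and 9.83 CPM in CCR7 dendritic cells, against 14.9, 8.52 and 7.35 CPM in cDC1 and 48.1, 53.2 and 51.8 CPM in cDC2. It was called lower against cDC2 (-3.02 ± 0.51, edgeR adjusted p = 7.47e-05). Fas, a death receptor of the regulatory list, had 86.7, 66.7 and 105 CPM in CCR7 dendritic cells, against 1.36, 3.41 and 7.35 CPM in cDC1 and 6.41, 0 and 33.3 CPM in cDC2 and was called higher in both.

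Antigen presentation split by class. Of 13 class II presentation genes tested, 1 was called higher and 8 lower against cDC1, and 0 higher and 11 lower against cDC2. For class II presentation genes without the 11 cells, of 13 tested, the counts were 1 and 6 against cDC1, and 1 and 6 against cDC2. Class II presentation genes had a median log2 difference of -1.12 against cDC1 and -1.46 against cDC2 (-0.62 and -0.91 without the 11 cells). Lower calls made up 11.1% of all genes against cDC1 and 9.64% against cDC2, and higher calls 17% and 15.5%. The 6 lower calls against cDC2 without the 11 cells, in place of 11 with them, make this count dependent on those cells. The calls of the next 5 genes held in both comparisons with and without them. H2-DMb1 (chromosome 17 from 34153072 to 34160230), a subunit of the peptide-exchange factor, had 65.9, 49.4 and 37.9 CPM in CCR7 dendritic cells, against 402, 636 and 489 CPM in cDC1 and 474, 598 and 566 CPM in cDC2. This amounted to a log2 difference of -3.28 ± 0.20 against cDC1 (edgeR adjusted p = 6.23e-11) and -3.39 ± 0.21 against cDC2 (edgeR adjusted p = 1.05e-10). H2-DMa, its partner, had 109.9, 82.7 and 101 CPM in CCR7 dendritic cells, against 395, 610.2 and 538 CPM in cDC1 and 659.996, 528 and 540.3 CPM in cDC2. Ciita, the master activator of class II transcription, had 47.6, 46.7 and 42.1 CPM in CCR7 dendritic cells, against 132, 145 and 171 CPM in cDC1 and 192, 168 and 122 CPM in cDC2. H2-Ab1, a class II chain, had 4148, 4101 and 4233 CPM in CCR7 dendritic cells, against 11183, 13806 and 13043 CPM in cDC1 and 14703, 13697 and 11879.6 CPM in cDC2 (log2 -1.61 ± 0.10 and -1.69 ± 0.10, -1.12 and -1.13 without the 11 cells). March1, a ubiquitin ligase that removes class II from the surface, had 1 molecule in the 281 members, against 56.98, 69.9 and 58.8 CPM in cDC1 and 12.8, 40.9 and 29.6 CPM in cDC2. All 5 genes lay below every conventional sum. Of the class II genes, H2-Aa, H2-Eb1 and Cd74 passed the 2-fold limit against cDC2 only with the 11 cells.

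Class I genes were higher or not called. Of 17 class I presentation genes tested, 6 were called higher and 0 lower against cDC1, and 5 higher and 0 lower against cDC2. For class I presentation genes without the 11 cells, of 18 tested, the counts were 9 and 0 against cDC1, and 11 and 0 against cDC2. Class I presentation genes had a median log2 difference of 0.39 against cDC1 and 0.63 against cDC2 (1.03 and 1.14 without the 11 cells). Higher calls made up 17% of all genes against cDC1 and 15.5% against cDC2, and lower calls 11.1% and 9.64%. H2-K1, a classical class I heavy chain, had 3033, 2728 and 3261 CPM in CCR7 dendritic cells, against 1103, 1462 and 1362 CPM in cDC1 and 1506, 1753 and 1625 CPM in cDC2. It was called higher against cDC1 (1.21 ± 0.11, edgeR adjusted p = 1.46e-08). Against cDC2 it passed only without the 11 cells (0.89 ± 0.11 with them, 1.38 without them). Nlrc5, the class I counterpart of Ciita, had 125, 135 and 126 CPM in CCR7 dendritic cells, against 44.8, 59.7 and 53.3 CPM in cDC1 and 41.7, 53.2 and 40.7 CPM in cDC2 and was called higher in both. Psme2, a proteasome activator subunit, had 552, 585 and 603 CPM in CCR7 dendritic cells, against 204, 299.99 and 289 CPM in cDC1 and 147, 254 and 218 CPM in cDC2, likewise higher in both. H2-Q6 and H2-Q7 were called higher as well, though reads of these near-identical genes cannot be assigned with certainty. For the transporter gene Tap1, 154, 191 and 181 CPM in CCR7 dendritic cells stood against 251, 336 and 296 CPM in cDC1 and 169.8, 225 and 274 CPM in cDC2, which was not called.

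Uptake receptor genes were called lower in 11 of 17 cases against cDC2 and moved in both directions against cDC1, and no Toll-like receptor or adaptor gene was called higher. Of 17 uptake receptor genes tested, 3 were called higher and 5 lower against cDC1, and 2 higher and 11 lower against cDC2. For uptake receptor genes without the 11 cells, of 18 tested, the counts were 2 and 6 against cDC1, and 2 and 9 against cDC2. Uptake receptor genes had a median log2 difference of -0.76 against cDC1 and -2.33 against cDC2 (-0.54 and -1.71 without the 11 cells). For this list and the next, all genes had 17% higher and 11.1% lower calls against cDC1, and 15.5% and 9.64% against cDC2. The 3 higher calls of uptake receptors against cDC1 lie near that share. Fcgr2b, the inhibitory Fc receptor, had 45.2, 24.02 and 25.3 CPM in CCR7 dendritic cells, against 175, 112 and 116 CPM in cDC1 and 160.2, 201 and 115 CPM in cDC2. The difference on the log2 scale was -2.09 ± 0.25 against cDC1 (edgeR adjusted p = 5.01e-07) and -2.33 ± 0.26 against cDC2 (edgeR adjusted p = 4.13e-07). Fcer1g, the Fc receptor signalling chain, had 317, 419 and 329 CPM in CCR7 dendritic cells, against 530.5, 522 and 476 CPM in cDC1 and 1644, 1744 and 1432 CPM in cDC2 and was called lower against cDC2. Against this direction, Ly75, which encodes the uptake receptor DEC-205, had 352, 249.6 and 269.7 CPM in CCR7 dendritic cells, against 36.6, 57.95 and 58.8 CPM in cDC1 and 6.41, 8.19 and 7.40 CPM in cDC2 and was called higher in both. The call of higher for Lrp1 against cDC1 (2.23 ± 0.39) rested on the 11 cells (0.55 without them). Of 8 Toll-like receptor and adaptor genes tested, 0 were called higher and 5 lower against cDC1, and 0 higher and 4 lower against cDC2. For Toll-like receptor and adaptor genes without the 11 cells, of 8 tested, the counts were 0 and 4 against cDC1, and 0 and 3 against cDC2. Toll-like receptor and adaptor genes had a median log2 difference of -1.38 against cDC1 and -1.003 against cDC2 (-1.19 and -0.57 without the 11 cells). The adaptor gene Myd88 had 35.4, 49.4 and 36.5 CPM in CCR7 dendritic cells, against 125, 136 and 143 CPM in cDC1 and 125, 111 and 133 CPM in cDC2. Tlr2 had 32.97, 16.02 and 25.3 CPM in CCR7 dendritic cells, against 55.6, 39.2 and 36.8 CPM in cDC1 and 135, 111 and 152 CPM in cDC2. Myd88 was called lower in both comparisons (-1.73 ± 0.22, edgeR adjusted p = 1.33e-06, and -1.61 ± 0.24, edgeR adjusted p = 1.73e-05), Tlr2 against cDC2. Unc93b1, which carries nucleic acid-sensing receptors to endosomes, had 64.7, 61.4 and 75.8 CPM in CCR7 dendritic cells, against 262, 320.4 and 252 CPM in cDC1 and 173, 156 and 170.2 CPM in cDC2, lower in both with the 11 cells and against cDC1 without them.

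Lineage genes of each conventional class were mostly called lower than in that class, while lineage transcription factors moved in both directions. The conventional classes were picked by Xcr1 and Clec9a or by Cd209a, and the members were not. Lower calls of genes that vary with these markers are thus set in part by the rules. Of 13 cDC1 lineage genes tested, 0 were called higher and 13 lower against cDC1, and 1 higher and 3 lower against cDC2. For cDC1 lineage genes without the 11 cells, of 13 tested, the counts were 0 and 13 against cDC1, and 1 and 4 against cDC2. The cDC1 lineage genes had a median log2 difference of -4.74 against cDC1 and -0.83 against cDC2 (-4.28 and -0.97 without the 11 cells). Wdfy4, needed for cross-presentation by cDC1, had 37.9, 32.03 and 16.9 CPM in CCR7 dendritic cells, against 714, 815 and 801 CPM in cDC1 and 224, 119 and 174 CPM in cDC2 and was called lower in both. The integrin gene Itgae had 21.98, 10.7 and 0 CPM in CCR7 dendritic cells, against 339, 293 and 342 CPM in cDC1 and 25.6, 4.09 and 3.70 CPM in cDC2, called lower against cDC1 and overlapping cDC2. Of 10 cDC2 lineage genes tested, 2 were called higher and 1 lower against cDC1, and 0 higher and 7 lower against cDC2. For cDC2 lineage genes without the 11 cells, of 10 tested, the counts were 4 and 1 against cDC1, and 0 and 6 against cDC2. The cDC2 lineage genes had a median log2 difference of 0.60 against cDC1 and -2.47 against cDC2 (1.05 and -1.996 without the 11 cells). Itgam, which encodes CD11b, had 32.97, 24.02 and 46.3 CPM in CCR7 dendritic cells, against 61.1, 49.4 and 36.8 CPM in cDC1 and 538, 422 and 289 CPM in cDC2. It was called lower against cDC2 (-3.57 ± 0.25, edgeR adjusted p = 9.25e-10). Of 23 lineage transcription factor genes tested, 10 were called higher and 3 lower against cDC1, and 8 higher and 3 lower against cDC2. For lineage transcription factor genes without the 11 cells, of 23 tested, the counts were 12 and 2 against cDC1, and 12 and 3 against cDC2. Lineage transcription factor genes had a median log2 difference of 0.64 against cDC1 and 0.48 against cDC2 (1.06 and 1.02 without the 11 cells). The 3 lower calls in each comparison lie near the shares over all genes, which were 11.1% against cDC1 and 9.64% against cDC2. Higher calls over all genes were 17% and 15.5%. Irf8, the factor of cDC1 identity, had 904, 892 and 982 CPM in CCR7 dendritic cells, against 893, 1116 and 851 CPM in cDC1 and 163, 168 and 163 CPM in cDC2, overlapping cDC1 and called higher than in cDC2. Id2 had 2032, 1743 and 2072 CPM in CCR7 dendritic cells, against 1088, 1875 and 1339.6 CPM in cDC1 and 169.8, 364 and 252 CPM in cDC2. Batf3 had 97.7, 68.1 and 57.6 CPM in CCR7 dendritic cells, against 73.3, 46.02 and 71.7 CPM in cDC1 and 6.41, 12.3 and 11.1 CPM in cDC2. Both were likewise called higher against cDC2 and not against cDC1. Irf4, the factor of cDC2 and of migration, had 62.3, 36.04 and 50.6 CPM in CCR7 dendritic cells, against 5.43, 1.70 and 3.68 CPM in cDC1 and 48.1, 106 and 40.7 CPM in cDC2, higher than in cDC1 and overlapping cDC2. Stat4, a signal transducer of IL-12, had 368, 334 and 285 CPM in CCR7 dendritic cells, against 10.9, 8.52 and 5.51 CPM in cDC1 and 51.3, 61.4 and 40.7 CPM in cDC2, higher than in both. Spib, an ETS family factor, had 53.7, 34.7 and 50.6 CPM in CCR7 dendritic cells, against 2.71, 0 and 0 CPM in cDC1 and 35.2, 8.19 and 7.40 CPM in cDC2. Tcf7 had 167, 101 and 154 CPM in CCR7 dendritic cells, against 5.43, 0 and 0 CPM in cDC1 and 0, 0 and 3.70 CPM in cDC2 on the TMM scale. In cDC1 its 4 molecules all lay in the 1 cell of tag 8 rich in melanoma transcripts, and no other cDC1 held any. Spib and Tcf7 were each called higher in both, but Spib was not against cDC2 without tag 9 (edgeR adjusted p = 0.0609) or tag 10 (edgeR adjusted p = 0.194). Ahr, the aryl hydrocarbon receptor, had 21.98, 26.7 and 16.9 CPM in CCR7 dendritic cells, against 118, 97.2 and 108 CPM in cDC1 and 96.1, 119 and 70.3 CPM in cDC2 and was called lower in both.

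**Figure D4:**
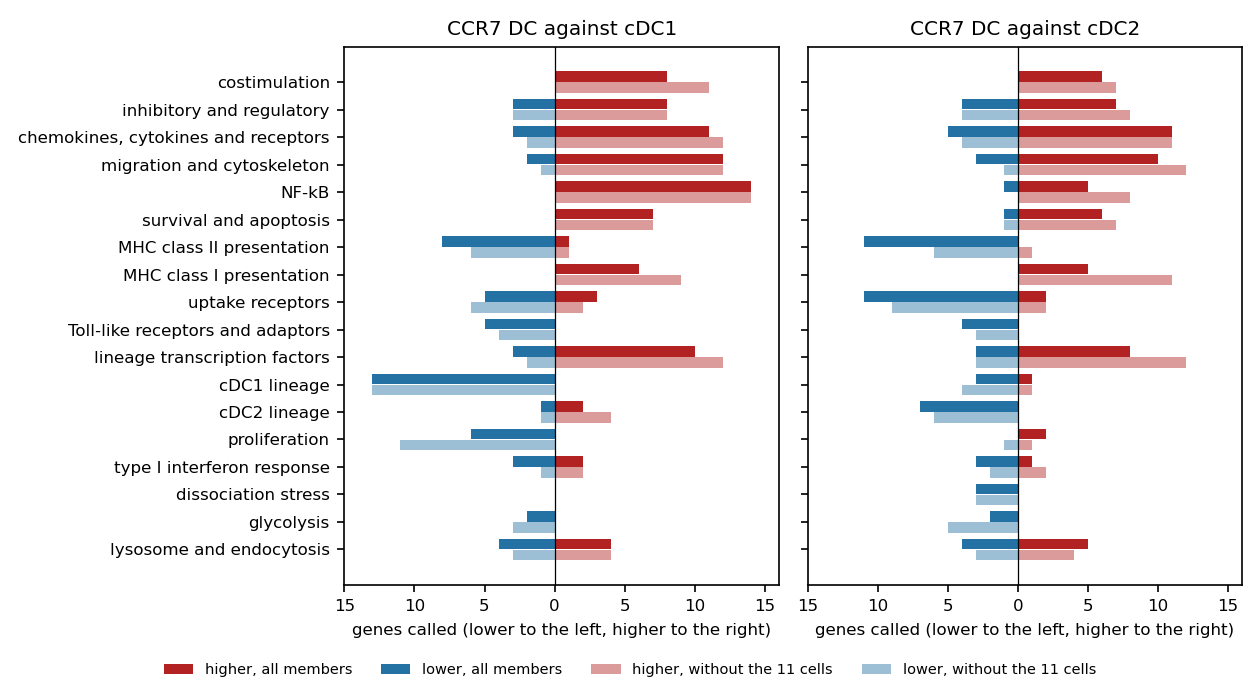
Number of genes called higher (right) or lower (left) in CCR7 dendritic cells in each list, against cDC1 (left panel) and cDC2 (right panel), with all 281 members (dark bars) and without the 11 cells rich in fibroblast, melanoma or Sparc transcripts (pale bars). The costimulation, NF-kB and class I lists have higher calls and at most 1 lower call in each comparison, the cDC1 lineage list has 13 lower calls against cDC1, and the proliferation and class II lists change with the 11 cells.

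Proliferation genes depended on the 11 cells. Of 14 proliferation genes tested, 0 were called higher and 6 lower against cDC1, and 2 higher and 0 lower against cDC2. For proliferation genes without the 11 cells, of 14 tested, the counts were 0 and 11 against cDC1, and 1 and 1 against cDC2. Proliferation genes had a median log2 difference of -1.40 against cDC1 and 1.12 against cDC2 (-2.71 and -0.33 without the 11 cells). Over all genes, 17% were called higher and 11.1% lower against cDC1, and 15.5% higher and 9.64% lower against cDC2. The 2 higher calls against cDC2 lie near that share. Cdk1, a mitotic kinase, had 9.77, 58.7 and 125 CPM in CCR7 dendritic cells with the 11 cells and 4.94, 4.09 and 7.73 CPM without them, against 59.7, 32.4 and 67.99 CPM in cDC1 and 0, 12.3 and 7.40 CPM in cDC2. The replication gene Mcm6 had 29.3, 29.4 and 25.3 CPM with the 11 cells and 18.1, 18.4 and 15.5 CPM without them, against 94.97, 93.7 and 107 CPM in cDC1 and 19.2, 20.5 and 37.01 CPM in cDC2. Without the 11 cells, both were called lower against cDC1 and neither against cDC2. Mki67 was not called against cDC1 (-0.37 ± 0.22) and was called higher against cDC2 (1.18 ± 0.29, edgeR adjusted p = 0.00277; 1.13 without the 11 cells), though not without tag 9 (0.99). After thinning to 2000 molecules, it was found in 11.3% of CCR7 dendritic cells (21.4% before thinning), against 13.5% of cDC1 (33.3% before thinning) and 3.23% of cDC2 (10.9% before thinning).

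Interferon response and lysosomal genes were called in both directions, and the few calls of dissociation stress and glycolysis genes were lower. Of all genes tested, 17% were called higher and 11.1% lower against cDC1, and 15.5% higher and 9.64% lower against cDC2. With the 11 cells, the 2 lower calls among 14 glycolysis genes in each comparison lie near these shares. Without them, 3 of 14 were lower against cDC1 (14.8% over all genes) and 5 of 14 against cDC2 (12.7% over all genes). The glycolysis count against cDC2 thus depends on those cells, and no direction is read from that list. Of 15 interferon response genes tested, 2 were called higher and 3 lower against cDC1, and 1 higher and 3 lower against cDC2. For interferon response genes without the 11 cells, of 15 tested, the counts were 2 and 1 against cDC1, and 2 and 2 against cDC2. Interferon response genes had a median log2 difference of 0.07 against cDC1 and -0.75 against cDC2 (0.40 and -0.37 without the 11 cells). Higher calls of this list did not exceed the shares over all genes. Its 3 lower calls in each comparison fell to 1 and 2 without the 11 cells, so no direction is read from it. The 12 dissociation stress genes tested had no call against cDC1 and 3 lower calls against cDC2 (Fosb, Ier2 and Atf3). Of these, Fosb was not called without tag 9 (-0.78). The stress counts were the same without the 11 cells. Of 14 glycolysis genes tested, 0 were called higher and 2 lower against cDC1, and 0 higher and 2 lower against cDC2. For glycolysis genes without the 11 cells, of 14 tested, the counts were 0 and 3 against cDC1, and 0 and 5 against cDC2. Glycolysis genes had a median log2 difference of -0.10 against cDC1 and -0.46 against cDC2 (-0.42 and -0.83 without the 11 cells). Pfkp, a phosphofructokinase gene, had 111, 112 and 99.7 CPM in CCR7 dendritic cells, against 384, 423 and 474 CPM in cDC1 and 339.6, 393 and 237 CPM in cDC2 and was called lower in both. Of 14 lysosomal and endocytic genes tested, 4 were called higher and 4 lower against cDC1, and 5 higher and 4 lower against cDC2. For lysosomal and endocytic genes without the 11 cells, of 14 tested, the counts were 4 and 3 against cDC1, and 4 and 3 against cDC2. Lysosomal and endocytic genes had a median log2 difference of 0.14 against cDC1 and 0.01 against cDC2 (0.12 and 0.05 without the 11 cells). Lamp1 had 761, 625 and 859.5 CPM in CCR7 dendritic cells, against 182, 133 and 145 CPM in cDC1 and 231, 221 and 229 CPM in cDC2. Cd63, a tetraspanin of late endosomes, had 1123, 1347 and 1439.6 CPM in CCR7 dendritic cells, against 168, 22.2 and 7.35 CPM in cDC1 and 12.8, 53.2 and 11.1 CPM in cDC2. Both were called higher in both comparisons. The cDC1 sums of Cd63 differed widely, and that of tag 8 includes the cDC1 rich in melanoma transcripts. For Cd63, the call against cDC1 was lost when tag 9 (edgeR adjusted p = 0.151) or tag 10 (edgeR adjusted p = 0.186) was left out. Cd68 had 46.4, 32.03 and 49.2 CPM in CCR7 dendritic cells, against 218, 203 and 211 CPM in cDC1 and 433, 450.4 and 359 CPM in cDC2, lower in both. Psap, the saposin precursor, had 1208, 1156 and 1132 CPM in CCR7 dendritic cells, against 6482, 8173 and 8210.5 CPM in cDC1 and 1922, 2203 and 2017 CPM in cDC2, lower against cDC1. The higher call for the protease gene Ctsl in both comparisons was lost without the 11 cells (0.48 and 0.90).

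Within the class, members differed widely from each other. After each cell was thinned to 2000 molecules, which left out 16 members and 4 cDC2, at least 1 molecule of Ccl5 was found in 73.2% of CCR7 dendritic cells (82.9% before thinning), against 2.84% of cDC1 (15.6% before thinning) and 15.3% of cDC2 (22.7% before thinning). Il12b was found in 31.3% of CCR7 dendritic cells (43.1% before thinning), against 4.96% of cDC1 (8.51% before thinning) and 0 of 124 cDC2 (0% before thinning). Cd200 was found in 60.8% of CCR7 dendritic cells (76.5% before thinning), against 0 of 141 cDC1 (2.84% before thinning) and 0 of 124 cDC2 (0% before thinning). A count of 0 allows a share of up to 2.13% of cDC1 and 2.42% of cDC2 with a molecule at the thinned depth, and does not limit the share of cells that express the gene. The cDC2, without a molecule of Il12b or Cd200, were sequenced to a median depth of 5826.5 molecules, against 6219 in the members. H2-Ab1 was found in 69.1% of CCR7 dendritic cells (84.7% before thinning), against 99.3% of cDC1 (100% before thinning) and 98.4% of cDC2 (99.2% before thinning). Without the 11 cells, the thinned shares of CCR7 dendritic cells were 76.4% for Ccl5, 32.7% for Il12b, 63.0% for Cd200 and 71.7% for H2-Ab1. Among the 270 members without the 11 cells, the quartiles of H2-Ab1 were 1, 6.5 and 48 molecules per cell, and 43 cells held none. In the same 270 cells, 27 cells held 74.1% of the 2000 Il12b molecules, 90.05% of the 442 Ccl17 molecules and 50.04% of the 9550 Ccl5 molecules. For Fscn1, on which cells were selected, the top 27 cells held 30.7%. Il12b reached 10 or more molecules in 45 cells and Ccl17 in 11, with 4 cells in common. Deeper cells hold more of every gene, and these counts were not adjusted for depth.

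**Figure D5:**
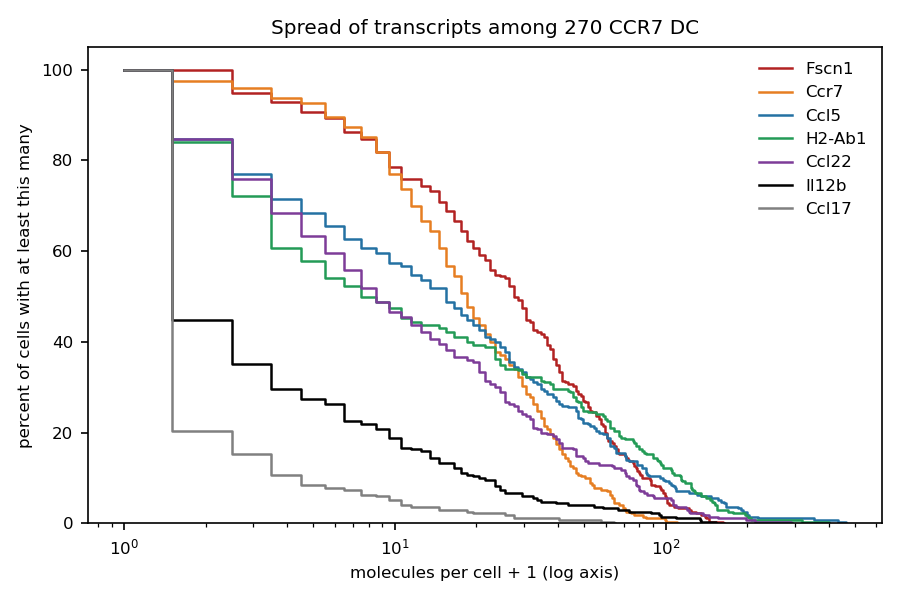
Percent of the 270 members without the 11 cells (vertical) that held at least a given number of molecules (horizontal, plus 1, log axis) of each gene; each line is a gene. Fscn1 and Ccr7, which chose the cells, are found in nearly all of them, Il12b in 44.8% and Ccl17 in 20.4%.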

How the data were processed

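Unique molecules per cell and gene were counted by the authors' BD WTA Multiplex Rhapsody Analysis Pipeline 1.9.1 against GRCm38 with GENCODE vM19, per the file headers, and are unnormalised counts corrected for sequencing errors. GRCm39 is named in the submitters' processing notes, and the header's build was followed. Sample tag calls come from the authors' second table, which lists the same 14899 barcodes. The table holds 24510 genes, 745 of them without a molecule. The sums per tag and class held 742431 to 866415 molecules for CCR7 dendritic cells, 537939 to 704134 for cDC1 and 241077 to 305573 for cDC2, so differences against cDC2 rest on the lowest depth. Intervals and floors cover counting error only.

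Cells were assigned by molecule counts. cDC1 held at least 2 molecules of Xcr1 and Clec9a and at most 1 of Cd209a; cDC2 held at least 2 of Cd209a and at most 1 of Xcr1 and Clec9a and of Ly6c2 and Chil3. Both held at most 1 Siglech molecule. No doublet caller was run, and cells with a multiplet tag call were left out. For each tag and class the raw molecules were added up, and the sums fitted with edgeR 4.0.16 in R 4.3.3 (TMM, filterByExpr, robust quasi-likelihood test, tag as a block because the classes of a tag come from the same mice). Standard errors are the log2 difference divided by the root of the F statistic. The 19 genes of the rules stayed in the library sizes and out of the tests. The members, the 19 gene lists (318 genes, 316 of them in the table) and the comparison classes were chosen with earlier results of these data known. Genes were named if they belonged to a list, or if they were among the 15 largest called differences in a direction with at least 50 CPM in the higher class and 2-fold in each tag. Leaving out the 11 cells rich in other transcripts, and adding the 74 cells with T cell receptor molecules, were chosen after seeing the data. Fits were tested on simulated data. True 2-fold increases were called in 36% of genes in each comparison, and true 2-fold decreases in 33.3% against cDC1 and 31.1% against cDC2. True 4-fold increases were called in 98% and 96%, and true 4-fold decreases in 89.4% and 70.2%. A gene that was not called may therefore still differ by 2-fold. Gene positions are from GENCODE vM21, and promoters from RefSeq (GRCm38.p6). DESeq2 1.42.0 served as an alternative. Counting ran in Python 3.11.15 with scipy 1.17.1, tables in pandas 2.3.3, and plots in matplotlib 3.10.9. A few genes of the lists and of the leading differences are counted in the totals but not reported here by name.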

Additional observations from a re-analysis of the deposited data

Results flagged for a closer look

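Cells without a single sample tag entered no comparison, and some of them met the count rule of the CCR7 dendritic cells. Of 1271 cells with a multiplet tag call that passed the filters on genes and mitochondrial molecules, 36 met the rule. Of 175 such cells with an undetermined tag, 7 met it. Among cells with a single tag, 281 of 10491 met it (2.68%), so multiplet cells met it about as often. The share of undetermined cells rests on 7 cells. Both groups are listed because the comparisons do not use them.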

How the results depend on the processing

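The 4 counts of genes called, against cDC1 and cDC2 in each direction, stayed within 1.5 times their values with all members under every alternative except thinning each cell to 2000 molecules. Thinned, with 2281 genes tested, 567 genes were higher and 256 lower against cDC1, and 507 higher and 263 lower against cDC2. Leaving out each tag in turn gave 1125 to 1304 higher and 595 to 783 lower against cDC1, and 923 to 1136 higher and 545 to 619 lower against cDC2. Without the replicate block, the counts were 1178 and 767 against cDC1, and 1066 and 676 against cDC2. DESeq2 called 986 and 550 against cDC1, and 775 and 545 against cDC2. The number of members was 252 with a sum of 20 or more selecting molecules, 241 with no T cell receptor molecule, and 355 with the 74 cells added. Without the 11 cells, of the log2 differences of genes named by the rule, 326 kept their call, 207 stayed without one, 48 gained one, 35 lost it and 2 turned: Ccnb2 was -0.36 against cDC2 and Emp1 -1.29 against cDC1. With the 74 cells added, Ctla4 turned to 2.25 against cDC1 and 4.15 against cDC2. With comparison cells of 5 or more class molecules, Hspa1a was 1.72 and Hspa1b 1.80 against cDC1. The causes of these turns were not tested. With DESeq2, 365 of the named differences kept their call, 247 stayed without one, 9 gained one and 49 lost it, among them the genes without a molecule in a class. Depth limits calls of genes under the filter, such as Cd70 and Ido1, and shares of cells in the shallower cDC2.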
